A study of Homo sapiens with 18 samples.

Results

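The NFYA knockdown with androgen comprised 3 libraries of LNCaP cells given small interfering RNAs against NFYA and the synthetic androgen R1881 (siNFYA R1881), set against 3 libraries of LNCaP cells given control siRNAs and R1881 (siC R1881). The 6 libraries were chosen by their column names and are 6 of 18 labelled samples, of which 17 have a column in the tables used here. The study addressed transcription factors acting on the metabolism of prostate cancer cells, and it sequenced RNA after knockdown of NFYA or KLF5 with and without androgen. LNCaP is an androgen-dependent human prostate cancer line. All groups were kept in medium with 5% charcoal-stripped serum, which lacks steroids, for 48 h, and then received 10 nM R1881 or its vehicle, 96% ethanol, for 24 h.

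The groups used were siNFYA with R1881, siNFYA with vehicle, siKLF5 with R1881, siC with R1881 and siC with vehicle, with 3 libraries each. Each siRNA reagent was a pool, so single siRNAs cannot be told apart, and only 1 cell line was used. The labels do not say that replicates were separate cultures, so the p-values measure the spread between these libraries, which may be technical. The siNFYA R1881 libraries held 5034545 to 6047130 estimated counts and the siC R1881 libraries 5581013 to 5776562. A count of 3 in a library equals 0.496 to 0.596 CPM, counts scaled to 1000000 per library. The luminal cytokeratin gene KRT8 had 18021 to 22264 counts in siNFYA R1881 libraries and 20753 to 21804 in siC R1881 libraries. The defining basal markers TP63, KRT5 and KRT17 and the neuroendocrine markers INSM1 and SOX2 were at 0 in all 6 libraries. The summed level of 20 luminal markers was 19500 to 20100 CPM with siNFYA and 19600 to 20000 CPM with siC. For 14 neuroendocrine and neuronal markers it was 1510 to 1550 CPM with siNFYA and 1640 to 1670 CPM with siC, for 17 stromal markers 162 to 178 CPM with siNFYA and 183 to 204 CPM with siC, and for 10 basal markers 11.7 to 13.4 CPM with siNFYA and 12.6 to 18.3 CPM with siC. For 11 blood and endothelial markers, of which LYZ, KDR, CDH5, CD3E and HBB were at 0, it was 10.6 to 15.1 CPM with siNFYA and 9.2 to 11.3 CPM with siC. Their part in the results below was not tested.

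NF-Y is a trimer of NFYA, NFYB and NFYC that binds the CCAAT box, a short element found upstream of many transcription start sites. NFYB and NFYC form a histone-like dimer, and NFYA is the subunit that reads the DNA sequence. Well known NF-Y targets include genes of the cell cycle, of cholesterol and fatty acid synthesis and of protein folding in the endoplasmic reticulum. NFYA is made as a long and a short protein form, which differ by an exon in the glutamine-rich part that activates transcription.

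NFYA (ENSG00000001167, GRCh38 chr6:41072945-41099976, plus strand) had 58.9, 57.0 and 53.7 CPM in siNFYA R1881 libraries, against 84.6, 89.8 and 86.8 CPM in siC R1881 libraries. The groups did not overlap. NFYA fell by 0.62 on the log2 scale (SE 0.0615, adjusted p = 2.37e-07, edgeR quasi-likelihood test with Benjamini-Hochberg adjustment over all genes tested, n = 3 each). The mRNAs of its partners did not pass the test. NFYB averaged 28.8 ± 2.02 CPM with siNFYA and 32.0 ± 0.933 CPM with siC (log2 difference -0.15, adjusted p = 0.396). NFYC averaged 57.4 ± 2.97 CPM with siNFYA and 51.3 ± 3.52 CPM with siC (log2 difference 0.16, adjusted p = 0.237).

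The values of both coding forms of NFYA were lower in every siNFYA R1881 library than in any siC R1881 library. The exon that only the long form holds is its exon 3, which is coding and spans GRCh38 chr6:41080811-41080897 on the plus strand (87 bases, 29 codons, GENCODE 29 transcript). It is printed because it separates the forms, and no letter is marked in capitals.
NFYA exon 3: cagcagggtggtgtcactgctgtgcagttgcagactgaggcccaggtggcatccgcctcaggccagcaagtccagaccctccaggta
The long transcript, NFYA-201, had 18.8, 17.5 and 17.4 TPM (transcripts scaled to 1000000 per library) in siNFYA R1881 libraries, against 27.6, 27.6 and 27.3 TPM in siC R1881 libraries. The short transcript, NFYA-202, had 9.66, 8.11 and 6.59 TPM in siNFYA R1881 libraries, against 12.9, 18.1 and 15.8 TPM in siC R1881 libraries. Neither pair of groups overlapped, and each gave p = 0.1 in the exact two-sided permutation test, the smallest p that 3 libraries against 3 can give. The long form made up 69.0 ± 3.28% of the 2 with siNFYA and 63.9 ± 3.96% with siC (exact permutation p = 0.2). The transcripts also differ at their 3′ ends, and the authors' quantification divides reads between them, an error that the spread does not show.

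**Figure D1:**
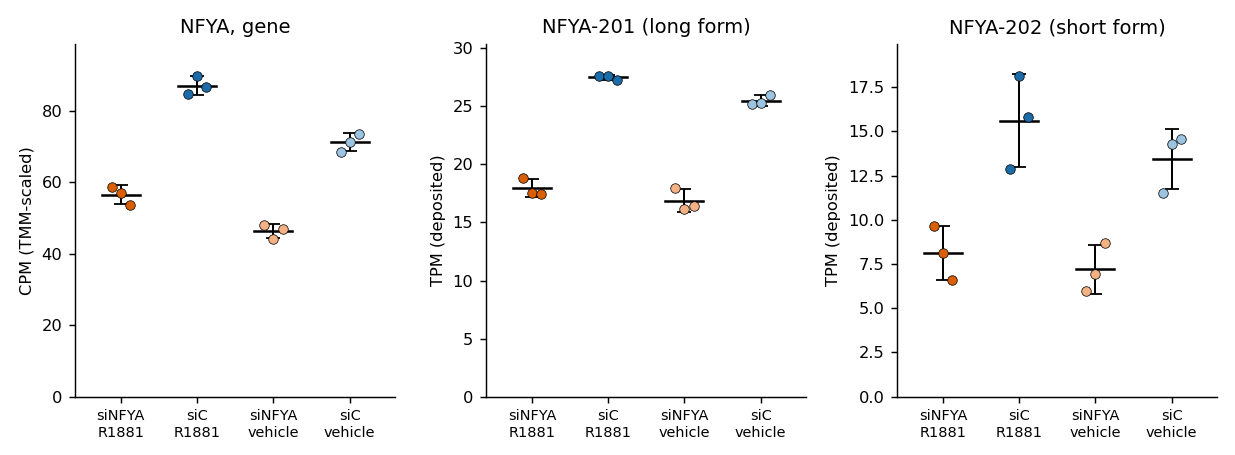
NFYA per library: gene level in CPM (left), long transcript NFYA-201 in TPM (middle) and short transcript NFYA-202 in TPM (right), in siNFYA R1881, siC R1881, siNFYA vehicle and siC vehicle libraries. Points are libraries, the line is the mean and the bars are 1 SD (n = 3); with R1881 the siNFYA libraries sit at 53.7 to 58.9 CPM and the siC libraries at 84.6 to 89.8 CPM.

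Across the transcriptome, knockdown of NFYA in androgen-treated cells gave many small decreases and fewer but larger increases. Of 12601 genes tested, 332 rose (2.63%) and 419 fell (3.33%), which together is 5.96% of genes. The median change was 1.48-fold among genes that rose and 0.849-fold among genes that fell, with a median log2 of -0.02 over all genes tested. At 1.5-fold or more, 158 genes rose (1.25%) and 33 fell (0.262%). The libraries did not overlap for 740 of the 751 called genes, against 23.9% of all genes tested. The first principal component, with 35.1% of the variance, placed the siNFYA libraries at 11.5 to 15.3 and the siC libraries at -15.3 to -10.4. On the second, with 18.6%, siNFYA replicate 1 stood at -19.0 and the other 2 siNFYA libraries at 10.9 and 7.38.

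Fitted on the compared groups alone, 369 genes rose and 272 fell, so that 57.6% of calls were increases, against 44.2% in the fit to all 12 libraries. Without siC R1881 replicate 1 the counts were 191 and 211, without siC R1881 replicate 3 they were 221 and 241, and without siNFYA R1881 replicate 3 they were 221 and 235. In bulk RNA, fewer cells of a kind and less RNA per cell cannot be told apart.

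**Figure D2:**
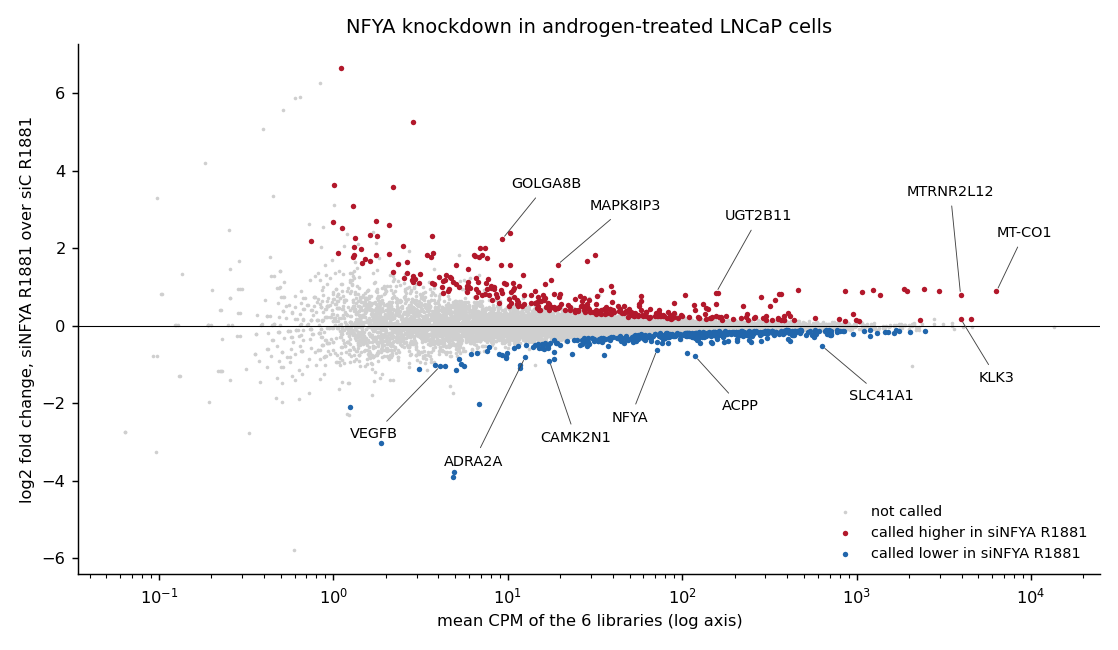
Log2 fold change, siNFYA R1881 over siC R1881, against the mean level in CPM (log axis) for the 12601 genes tested; each point is a gene, red where it rose (332), blue where it fell (419) and grey where it did not pass the test. The median fold was 1.48 among rises and 0.849 among falls, and the mitochondrial mRNAs are among the red points at high CPM.

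Among the genes that fell, SLC41A1, a magnesium transporter, had 533, 508 and 523 CPM in siNFYA R1881 libraries, against 754, 760 and 736 CPM in siC R1881 libraries. All siNFYA libraries lay below all siC libraries, and the gene fell by 0.53 on the log2 scale (SE 0.0392, adjusted p = 1.2e-09). ACPP, which encodes prostatic acid phosphatase, a secreted luminal product, had 84.2, 91.7 and 85.3 CPM with siNFYA, against 157, 149.9 and 145 CPM with siC. ACPP fell by 0.79 (SE 0.0558, adjusted p = 4.88e-10), again with no overlap. CAMK2N1, an inhibitor of calcium/calmodulin-dependent kinase II, had 12.3, 13.4 and 10.3 CPM with siNFYA, against 20.4, 23.6 and 24.0 CPM with siC (log2 -0.91, adjusted p = 4.39e-05). ADRA2A, an alpha-2 adrenergic receptor, had 9.81, 7.58 and 10.1 CPM with siNFYA, against 15.3, 16.5 and 16.2 CPM with siC (log2 -0.81, adjusted p = 0.000845). Neither gene overlapped between groups. ORM1, a plasma glycoprotein of the acute phase, had 14.0, 13.4 and 11.8 CPM with siNFYA, against 26.1, 23.8 and 22.0 CPM with siC (log2 -0.87). ORM1 is close in sequence to ORM2, so the division of reads between them is uncertain. All 5 genes kept their call in each of the 6 fits that leave out 1 of the 6 libraries.

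Other falls at low levels included a glypican, a growth factor and a transporter. GPC6, a cell surface proteoglycan, averaged 2.85 ± 0.561 CPM with siNFYA and 5.90 ± 0.383 CPM with siC (log2 -1.04). MDK, the heparin-binding growth factor midkine, averaged 7.04 ± 0.768 CPM with siNFYA and 12.6 ± 0.471 CPM with siC (log2 -0.83). SLC7A2, a carrier of cationic amino acids, averaged 7.18 ± 0.531 CPM with siNFYA and 12.4 ± 1.36 CPM with siC (log2 -0.80). TTC9 fell by 0.97 on the log2 scale, and these 4 calls were kept in all 6 of those fits. VEGFB, a vascular growth factor, averaged 2.68 ± 0.286 CPM with siNFYA and 5.52 ± 0.415 CPM with siC (log2 -1.04, adjusted p = 0.0134), and its call was kept in 4 of 6. PTPRR (log2 -1.03, kept in 4), KCNQ1 (log2 -1.02, kept in 1), CCDC154 (log2 -0.87, kept in 2), AC068547.1 (7.65 CPM with siNFYA, 15.8 CPM with siC, kept in 1) and AL139011.2 (log2 -3.76, kept in 3) depended on single libraries. PCDH11Y fell by 1.08 and shares reads with a near-identical X-linked copy.

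By absolute level, the falls were of abundant transcripts. CKB, brain-type creatine kinase, had 1156, 1018 and 1061 CPM with siNFYA, against 1323, 1252 and 1313 CPM with siC (log2 -0.27, adjusted p = 0.000246). SPON2, a secreted matrix protein, averaged 1532 ± 76.2 CPM with siNFYA and 1751 ± 23.9 CPM with siC (log2 -0.19). IDH1, cytosolic isocitrate dehydrogenase, averaged 1235 ± 48.3 CPM with siNFYA and 1394 ± 26.1 CPM with siC (log2 -0.17). ACTG1, a cytoplasmic actin with close copies, fell by 0.16. These 4 kept their calls throughout, while MME (log2 -0.13) and ADAMTS1 (log2 -0.16) each kept theirs in 3 of 6 fits.

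SMARCA5, named after its values were seen, fell by a similar amount in both treatments. It encodes the ATPase of ISWI chromatin remodelling complexes, and had 83.3, 81.1 and 78.9 CPM with siNFYA and R1881, against 133, 128 and 137 CPM with siC and R1881 (log2 -0.71, SE 0.0517, adjusted p = 7.99e-10). With vehicle it averaged 84.5 ± 3.47 CPM with siNFYA and 134 ± 0.804 CPM with siC (log2 -0.66).

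**Figure D3:**
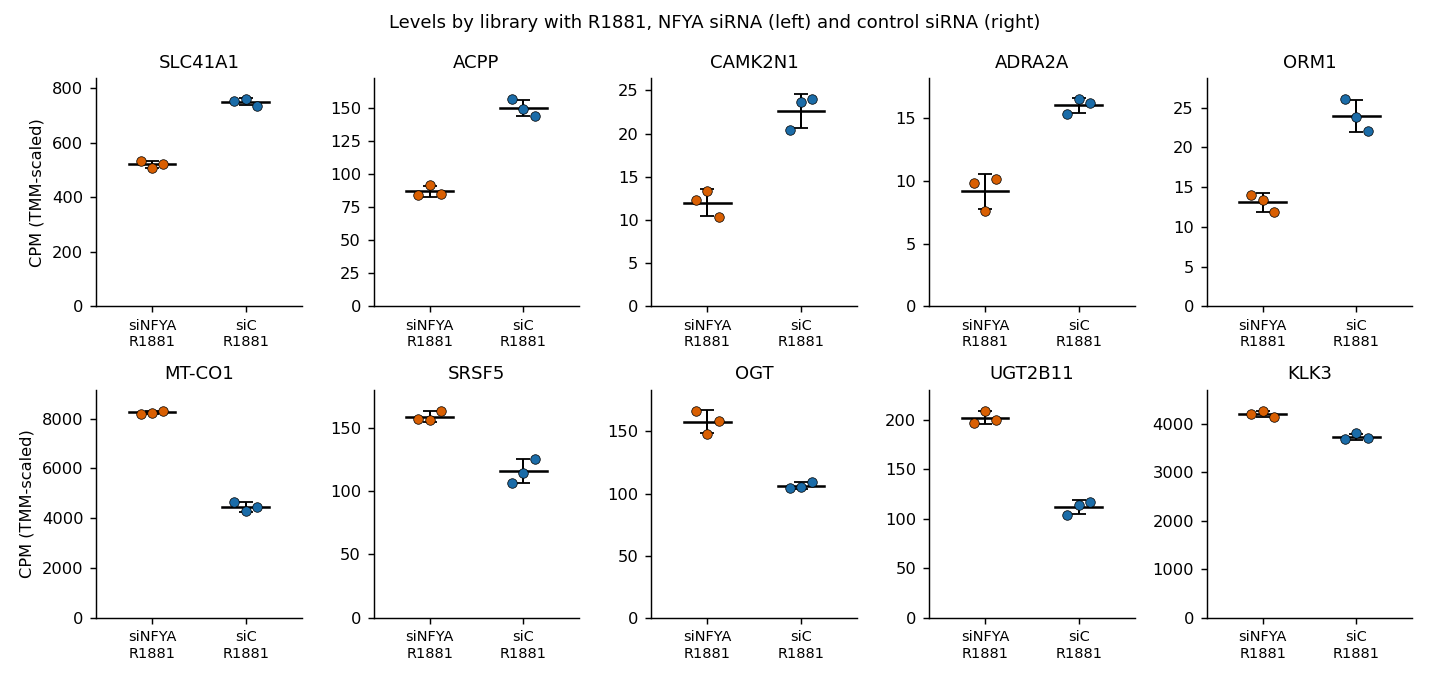
Levels in CPM per library of SLC41A1, ACPP, CAMK2N1, ADRA2A, ORM1, MT-CO1, SRSF5, OGT, UGT2B11 and KLK3, siNFYA R1881 on the left and siC R1881 on the right of each panel, with the mean and 1 SD (n = 3). In every panel shown the 3 siNFYA libraries lie apart from the 3 siC libraries, below them in the first 5 genes and above them in the other 5; genes were chosen because they were called.

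Promoter sequences of genes from these comparisons are shown to relate the values to the CCAAT box. They were chosen after the values were seen, to cover called genes and known NF-Y targets with and without the motif. Each line gives the 120 bases before the RefSeq start on the gene's own strand (GRCh38.p14), with every CCAAT or ATTGG, the same box on the other strand, in capitals.
RRM2, chr2:10122619-10122738, plus strand: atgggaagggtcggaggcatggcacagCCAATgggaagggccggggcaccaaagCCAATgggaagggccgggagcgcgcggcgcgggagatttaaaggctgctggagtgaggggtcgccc
CKB, chr14:103522831-103522950, minus strand: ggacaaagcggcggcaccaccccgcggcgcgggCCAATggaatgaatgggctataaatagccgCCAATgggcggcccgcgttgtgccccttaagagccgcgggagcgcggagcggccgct
SLC41A1, chr1:205813199-205813318, minus strand: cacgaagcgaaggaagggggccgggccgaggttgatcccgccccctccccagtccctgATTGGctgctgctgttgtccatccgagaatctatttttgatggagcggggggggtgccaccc
CCNB1, chr5:69167030-69167149, plus strand: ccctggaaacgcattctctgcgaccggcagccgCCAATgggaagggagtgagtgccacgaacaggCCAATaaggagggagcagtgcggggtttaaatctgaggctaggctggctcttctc
HSPA5, chr9:125241344-125241463, minus strand: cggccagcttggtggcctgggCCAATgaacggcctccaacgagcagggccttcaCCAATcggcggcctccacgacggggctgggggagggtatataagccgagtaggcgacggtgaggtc
VEGFB, chr11:64234464-64234583, plus strand: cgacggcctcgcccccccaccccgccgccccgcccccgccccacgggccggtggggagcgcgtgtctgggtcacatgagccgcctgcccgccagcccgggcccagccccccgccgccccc
ACPP, chr3:132317287-132317406, plus strand: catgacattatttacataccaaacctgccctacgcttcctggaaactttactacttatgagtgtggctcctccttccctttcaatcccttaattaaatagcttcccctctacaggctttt
In RRM2, a subunit of ribonucleotide reductase, the pentamers started 93 and 66 bases before the start site, and in CCNB1, cyclin B1, 87 and 55 bases before it. In HSPA5, the main chaperone of the endoplasmic reticulum, they started at 99 and 66 bases, in CKB at 87 and 57 bases and in SLC41A1 at 62 bases. VEGFB and ACPP (ACP3 in RefSeq), which both fell, held none in these windows.

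The pentamer's frequency was counted in the promoters of called genes and of all genes tested, as a description with no test. In the 250 bases before the start, CCAAT or ATTGG occurred in 34.7% of 542 promoter windows of genes that fell (336 of 419 genes matched), in 28.8% of 292 windows of genes that rose (212 of 332 matched) and in 33.3% of 14508 windows of all genes tested (9932 of 12601 matched). The share in all 35116 promoters of the table was 32.0%. Among genes that fell by 1.5-fold or more it was 18.5% of 27 windows, of 19 matched genes from 33. In 100 bases the shares were 20.7% for genes that fell, 16.4% for genes that rose and 20.6% for all genes tested. These are counts of letters, not of bound sites.

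Most known NF-Y targets of the cell cycle did not pass the test in androgen-treated cells, and the pentamer occurred in 80.6% of their 31 promoter windows. NFYA mRNA was lowered by 0.62 on the log2 scale but still present, and NFYA protein is not in these data. How far these genes depend on NFYA was therefore not tested. Of 25 measured genes, 0 rose and 2 fell, beside falls in 3.33% of all genes tested. CDK1, the mitotic kinase, averaged 68.7 ± 5.56 CPM with siNFYA and 81.8 ± 2.16 CPM with siC (log2 -0.25, adjusted p = 0.0225). RRM2 averaged 38.1 ± 2.02 CPM with siNFYA and 47.0 ± 6.32 CPM with siC (log2 -0.31, adjusted p = 0.0439). The calls were kept in 2 and 1 of the 6 fits, with log2 between -0.31 and -0.20 for CDK1 and between -0.38 and -0.20 for RRM2. At an unadjusted p under 0.05 edgeR gave 0 higher and 4 lower, beside 2398 of all 12601 genes tested in either direction. DESeq2 gave 0 higher and 1 lower, beside 180 and 217 of all genes tested. CCNB1 (76.0 ± 5.29 CPM with siNFYA, 77.3 ± 5.70 CPM with siC) and TOP2A (48.6 ± 1.62 CPM with siNFYA, 53.01 ± 3.82 CPM with siC), the topoisomerase of mitosis, did not pass. The median log2 of the list was -0.10, against -0.02 over all genes. In DNA replication and S phase, 0 of 40 rose and 1 fell, MCM4, a helicase subunit (log2 -0.35, kept in 3 of 6 fits).

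Protein folding genes of the endoplasmic reticulum, with the pentamer in 75.6% of 41 windows, gave 0 rises and 1 fall among 38, beside falls in 3.33% of all genes tested. The fall was CREB3L2, a membrane-bound transcription factor (log2 -0.25, kept in 5 of 6). HSPA5 averaged 1776 ± 65.5 CPM with siNFYA and 1714 ± 26.5 CPM with siC (log2 0.05, adjusted p = 0.431). At an unadjusted p under 0.05, 3 of the list were higher and 6 lower, beside 2398 of all 12601 genes tested in either direction. DESeq2 called 0 higher and 1 lower, beside 180 and 217 of all genes tested.

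Genes of cholesterol synthesis and uptake, with the pentamer in 62.1% of 29 windows, fell in 4 of 27 cases and rose in 0, beside falls in 3.33% of all genes tested. The falls were 1 without siC R1881 replicate 1, siC R1881 replicate 2 or siNFYA R1881 replicate 3, and 2 without siC R1881 replicate 3 or siNFYA R1881 replicate 1. At an unadjusted p under 0.05, 10 were lower and 0 higher, beside 2398 of all 12601 genes tested in either direction. DESeq2 called 3 lower and 0 higher, beside 217 and 180 of all genes tested. TM7SF2, a sterol reductase, fell by 0.23, CYP51A1, a sterol demethylase, by 0.15, and SQLE, squalene epoxidase, by 0.17. Their calls were kept in 3, 1 and 0 of the 6 fits. HMGCS1, an early enzyme of the pathway, averaged 400.1 ± 9.72 CPM with siNFYA and 437 ± 1.87 CPM with siC and did not pass the test (log2 -0.13, adjusted p = 0.064). SREBF2, the transcription factor that drives this pathway, fell to 394 ± 16.6 CPM with siNFYA, against 443 ± 21.3 CPM with siC (log2 -0.17, kept in 3 of 6).

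Many of the largest increases were in gene families with near-identical copies. The CPM values and log2 changes are gene levels over all transcripts. GOLGA8B averaged 15.4 ± 3.97 CPM with siNFYA and 3.23 ± 0.812 CPM with siC (log2 2.24), GOLGA8A rose by 1.84, NPIPB4 by 1.81 and TBC1D3L by 1.47 on the log2 scale. NPIPA7 had 6.92, 4.15 and 7.31 CPM with siNFYA, against 2.46, 1.12 and 0 CPM with siC, and its log2 of 2.31 was 3.35 without siC R1881 replicate 1 and 1.75 without siC R1881 replicate 3. RGPD5 (log2 1.67, kept in 2 of 6 fits) and SLX1B (log2 2.38, kept in 3) rose as well. Reads may be split wrongly among the copies, so these values are uncertain. CBSL, a near-copy of CBS, had 7.31, 6.68 and 2.79 CPM with siNFYA, against 0, 0 and 0.39 CPM with siC. Of the other genes, MAPK8IP3, a scaffold of kinase signalling and axonal transport, had 27.1, 27.1 and 32.7 CPM with siNFYA, against 10.2, 10.1 and 8.58 CPM with siC (log2 1.58, SE 0.15, adjusted p = 1.17e-07). ALOX12B, a skin-type lipoxygenase, had 13.3, 10.5 and 11.4 CPM with siNFYA, against 3.97, 2.62 and 3.90 CPM with siC (log2 1.74). Neither overlapped between groups. PABPC1L rose by 2.01, HSF4, a heat shock transcription factor, by 1.83, PILRB by 1.57 and JMJD7-PLA2G4B, an annotated readthrough gene, by 1.76. Some of these genes were also called higher in siKLF5 R1881 than in the same siC R1881 libraries, beside 0.673% of all genes tested. They were GOLGA8B (log2 1.59), NPIPB4 (log2 1.29), HSF4 (log2 1.21), MAPK8IP3 (log2 1.12), PABPC1L (log2 1.39) and CBSL (log2 3.90). The other rises named in this paragraph were not called there. Between siNFYA and siKLF5 with R1881, only ALOX12B among these rises was called. In GOLGA8B, transcripts retaining an intron averaged 3.503 TPM with siNFYA and 0.366 TPM with siC. Its coding transcripts averaged 0.0075 and 0.4746 TPM. In HSF4 the classes averaged 17.6 and 4.054 TPM, and 2.373 and 1.009 TPM (overlapping). Coding transcripts averaged lower with siNFYA only in GOLGA8B and JMJD7-PLA2G4B. They averaged higher in the other rises named, as in MAPK8IP3 (4.956 and 2.086 TPM). The part each class played was not tested.

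Transcripts annotated as retaining an intron made up a larger share of counts. They held 2.62 ± 0.0536% of counts in siNFYA R1881 libraries and 1.97 ± 0.0155% in siC R1881 libraries, ranging from 2.56 to 2.66% and from 1.96 to 1.98%. The ratio was 1.33, with exact permutation p = 0.1, the smallest possible. Transcripts of the nonsense-mediated decay class held 2.59 ± 0.0194% with siNFYA and 2.50 ± 0.00841% with siC, and the protein-coding class 92.1 ± 0.0371% and 92.9 ± 0.0716%. In siKLF5 R1881 libraries the retained-intron share was 2.34 ± 0.0817%, from 2.28 to 2.43%. All of these lay above the siC R1881 range and below the siNFYA R1881 range (exact permutation p = 0.1 against siNFYA). With vehicle the share was 2.87 ± 0.201% with siNFYA and 2.18 ± 0.0419% with siC (ratio 1.32, exact permutation p = 0.1).

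Within single genes, retained-intron transcripts were set beside coding transcripts. In CLK1, a kinase of splicing factors, retained-intron transcripts had 12.6, 11.6 and 14.7 TPM with siNFYA, against 4.32, 1.18 and 1.64 TPM with siC, while its coding transcripts averaged 23.8 TPM with siNFYA and 23.1 TPM with siC. In SRSF5, a serine/arginine-rich splicing factor, retained-intron transcripts had 26.1, 28.1 and 24.6 TPM with siNFYA, against 5.00, 10.2 and 6.76 TPM with siC, with coding transcripts at 149 TPM with siNFYA and 148 TPM with siC. The retained class did not overlap in either gene. In OGT, the enzyme that attaches N-acetylglucosamine to proteins, retained-intron transcripts had 11.5, 9.27 and 14.9 TPM with siNFYA, against 2.13, 2.25 and 2.34 TPM with siC, with coding transcripts at 27.1 TPM with siNFYA and 29.6 TPM with siC. In DDX17, an RNA helicase, the retained class averaged 15.8 TPM with siNFYA and 2.85 TPM with siC, and the coding class 105 TPM with siNFYA and 119 TPM with siC. Across the 10 genes examined, chosen after their values were seen, the retained class was higher in all, and the coding class overlapped between groups in 6, was higher in 3 and lower in 1. A further annotated class, processed transcripts, averaged 44.2 ± 17.4 TPM with siNFYA and 25.5 ± 4.81 TPM with siC in SRSF5. In OGT that class averaged 12.2 ± 6.01 TPM with siNFYA and 2.64 ± 2.07 TPM with siC, and in CLK1 0.249 TPM with siNFYA and 0.355 TPM with siC. These differences were not tested.

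Of 36 splicing regulators, a list chosen with earlier results of these data known, 12 rose and 0 fell. Of all genes tested, 2.63% rose and 3.33% fell. At an unadjusted p under 0.05, 20 of the 36 were higher and 2 lower, beside 2398 of all 12601 genes tested in either direction. DESeq2 called 10 higher and 0 lower, beside 180 and 217 of all genes tested. SRSF5 had 157, 156 and 164 CPM with siNFYA, against 107, 115 and 125 CPM with siC (log2 0.46, SE 0.0587, adjusted p = 1.4e-05). SRSF6 averaged 258 ± 0.51 CPM with siNFYA and 211 ± 3.25 CPM with siC (log2 0.29), CLK1 48.0 ± 4.63 CPM with siNFYA and 31.5 ± 3.92 CPM with siC (log2 0.60), and RBM5 93.3 ± 2.91 CPM with siNFYA and 72.6 ± 2.52 CPM with siC (log2 0.36). NKTR (log2 0.44), DDX17 (log2 0.20), HNRNPH1 (log2 0.20) and RBM25 (log2 0.25) were other members that rose. The median log2 of the list was 0.15. Since retained-intron transcripts count toward these genes, the share of each rise that they carry was not tested. With vehicle, 18 of the 36 rose and 0 fell, beside 6.67% and 6.79% of all genes tested. In siKLF5 R1881 against the same siC R1881 libraries, 5 rose and 0 fell, beside 0.673% and 0.588%. Between siNFYA and siKLF5 with R1881, 0 of the 36 were called by edgeR or DESeq2. At an unadjusted p under 0.05, 5 were higher with siNFYA and 0 lower.

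Every mRNA of the mitochondrial genome was higher. MT-CO1, a subunit of cytochrome c oxidase, had 8174, 8234 and 8323 CPM in siNFYA R1881 libraries, against 4637, 4267 and 4449 CPM in siC R1881 libraries. It rose by 0.89 on the log2 scale (SE 0.0455, adjusted p = 2.49e-12), and the groups did not overlap. All 13 mRNAs rose by edgeR and by DESeq2, with a median log2 of 0.90 and a range of 0.73 to 0.95. MT-CO3 averaged 3210 ± 72.8 CPM with siNFYA and 1675 ± 73.7 CPM with siC, MT-ND4 3875 ± 99.0 CPM with siNFYA and 2072 ± 74.4 CPM with siC, and MT-CYB 2543 ± 96.4 CPM with siNFYA and 1360 ± 63.9 CPM with siC. Mitochondrially encoded genes took 2.57 ± 0.0384% of counts with siNFYA and 1.38 ± 0.0543% with siC, ranging from 2.54 to 2.62% and from 1.33 to 1.44% (ratio 1.87, exact permutation p = 0.1). MTRNR2L12, a nuclear copy of a mitochondrial ribosomal RNA stretch, averaged 5010 ± 134 CPM with siNFYA and 2892 ± 120 CPM with siC (log2 0.79), and reads shared with the mitochondrial gene make its value uncertain.

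Of 49 nuclear-encoded subunits of oxidative phosphorylation, 0 were called in either direction by edgeR and 0 by DESeq2, with a median log2 of 0.03. At an unadjusted p under 0.05, 5 were higher and 1 lower, beside 2398 of all 12601 genes tested in either direction. siKLF5 R1881 libraries had a mitochondrial share of 2.49 ± 0.313%, from 2.20 to 2.82%, which overlapped the siNFYA range (exact permutation p = 0.7). All 13 mRNAs were called higher in siKLF5 R1881 than in siC R1881 libraries as well (median log2 0.85), a comparison that shares the siC R1881 libraries and in which 1.26% of 12922 genes were called, 0.673% higher and 0.588% lower. Between siNFYA and siKLF5 with R1881, 0 of 13 were called (0 at an unadjusted p under 0.05, 0 by DESeq2), with a median log2 of 0.05. Without the mitochondrial genes and AC010970.1, a ribosomal RNA-like gene, 311 genes were called higher and 520 lower.

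Androgen response genes moved in both directions. Among 69 genes known to be induced by androgen, 9 rose and 10 fell, beside 5.96% of all genes tested called in either direction, with a median log2 of -0.02. The rises were 4 without siC R1881 replicate 1, siC R1881 replicate 3 or siNFYA R1881 replicate 2. The falls were 4 without siC R1881 replicate 2, 5 without siC R1881 replicate 1 or siNFYA R1881 replicate 3, and 6 without siC R1881 replicate 3. KLK2, a kallikrein protease, had 1080, 1028 and 1059 CPM with siNFYA, against 830.4, 874 and 843 CPM with siC (log2 0.31, SE 0.0363, adjusted p = 3.08e-06), with no overlap. KLK3, which encodes prostate-specific antigen and is close in sequence to KLK2, had 4193, 4271 and 4140 CPM with siNFYA, against 3677, 3804 and 3707 CPM with siC (log2 0.17, adjusted p = 0.0313). The groups did not overlap, but the call was kept in none of the 6 fits, with log2 between 0.16 and 0.19. MICAL1, an actin-oxidising enzyme, had 280, 251 and 252 CPM with siNFYA, against 180.1, 189 and 180.3 CPM with siC (log2 0.51, adjusted p = 1.17e-07). ODC1, the entry enzyme of polyamine synthesis, averaged 4805 ± 135 CPM with siNFYA and 4255 ± 94.4 CPM with siC (log2 0.18). All are gene levels over all transcripts. Coding transcripts of MICAL1 averaged 88.75 TPM with siNFYA and 79.4 TPM with siC, and retained-intron transcripts 16.9 and 3.08 TPM. For KLK3 the coding class averaged 4062 and 3863 TPM and the retained class 544 and 350.5 TPM. For KLK2 they averaged 141 and 103 TPM and 899 and 667 TPM. Besides ORM1, ENDOD1 averaged 889.7 ± 21.3 CPM with siNFYA and 1029 ± 16.3 CPM with siC (log2 -0.21), and ALDH1A3, a retinal dehydrogenase, 224 ± 5.40 CPM with siNFYA and 262 ± 7.81 CPM with siC (log2 -0.23). FKBP5, a chaperone of steroid receptors (log2 0.04, adjusted p = 0.652), and TMPRSS2, a surface protease (log2 -0.10, adjusted p = 0.106), did not pass.

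Among 26 genes known to be repressed by androgen, 3 rose and 1 fell, beside 2.63% and 3.33% of all genes tested, and all the rises were of the UGT2B family, which conjugates androgens to glucuronic acid. UGT2B11 had 196, 209 and 199.9 CPM with siNFYA and R1881, against 104, 114 and 117 CPM with siC and R1881 (log2 0.86, SE 0.0556, adjusted p = 9.34e-11). In vehicle it was at 16.0 CPM with siNFYA and 17.4 CPM with siC, so in these control cells its level was higher with R1881 than with vehicle, against the list's name. UGT2B28 averaged 70.7 ± 6.26 CPM with siNFYA and 45.4 ± 2.74 CPM with siC (log2 0.64), and in vehicle it was at 1.51 CPM with siNFYA and 1.08 CPM with siC, so it too was higher with R1881 than with vehicle in control cells. UGT2B15 averaged 26.7 ± 2.90 CPM with siNFYA and 19.0 ± 0.306 CPM with siC (log2 0.48), and in vehicle 155 ± 2.64 CPM with siNFYA and 187 ± 3.25 CPM with siC. The family members are similar in sequence, so the division of reads among them is uncertain. The fall was CAMK2N1.

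The counts of calls in further metabolic lists are read beside 2.63% higher and 3.33% lower over all genes tested. In the tricarboxylic acid cycle and pyruvate entry, 1 of 31 rose (MPC2, a pyruvate carrier subunit) and 3 fell (IDH1, CS and IDH2), and in fatty acid synthesis 1 of 23 rose (ACSL3, an acyl-CoA ligase, log2 0.14, kept in 3 of 6 fits) and 2 fell (ELOVL7 and HACD2). FASN, fatty acid synthase, averaged 2934 ± 509 CPM with siNFYA and 2611 ± 160 CPM with siC and did not pass (adjusted p = 0.189). In glycolysis 1 of 24 rose, LDHA, lactate dehydrogenase A (log2 0.14). Of 15 polyamine genes, ODC1 and SMS rose, while ARG2, mitochondrial arginase (126 ± 11.0 CPM with siNFYA, 172 ± 2.87 CPM with siC, log2 -0.45), and AZIN1, an activator of ODC1 (log2 -0.20), fell. Of 18 genes of the hexosamine pathway and nucleotide sugars, 3 rose and 0 fell. OGT had 167, 148 and 158 CPM with siNFYA, against 104, 106 and 109 CPM with siC (log2 0.57, adjusted p = 2.02e-07), and UGDH and GMPPA were the others. Outside these lists, TNFRSF10B, a death receptor and p53 target, averaged 417 ± 3.43 CPM with siNFYA and 351 ± 7.97 CPM with siC (log2 0.25), and VEGFA, an angiogenic factor, averaged 180.2 ± 6.86 CPM with siNFYA and 153 ± 4.19 CPM with siC (log2 0.24). These are gene levels over all transcripts. Coding transcripts of VEGFA averaged 76.7 TPM with siNFYA and 78.3 TPM with siC, and its retained-intron transcripts 28.4 TPM with siNFYA and 9.01 TPM with siC. Coding transcripts of OGT were not higher either, while those of TNFRSF10B averaged 167 TPM with siNFYA and 145 TPM with siC. Among the genes of this paragraph that were called, IDH1, ODC1, ARG2, AZIN1, OGT, TNFRSF10B and VEGFA kept their calls in all 6 fits that leave out 1 library, and the others in 1 to 5 of them.

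Of 19 luminal markers, 3 rose and 5 fell, beside 2.63% and 3.33% of all genes tested. Without siC R1881 replicate 2 the counts were 1 and 1, and they were 1 to 2 rises and 2 to 4 falls without each of the other libraries. In fatty acid oxidation 1 of 24 rose (AMACR) and 1 fell (HSD17B4), in the pentose phosphate pathway 1 of 11 fell (H6PD), and in glutamine and amino acid transport 1 of 13 rose (SLC43A1) and 2 fell (SLC7A1 and GLUD1). HSPA9 fell among 21 heat shock genes, KLF13 among 17 KLF and SP genes, JUN among 13 immediate early genes and SYT4 among 4 neuroendocrine and neuronal markers tested, while NPC1 rose among 34 genes of autophagy and lysosome. Of the 6 fits that leave out 1 library, the calls of HSPA9 and GLUD1 were kept in 0, those of KLF13, SYT4, NPC1 and SLC43A1 in 1, that of HSD17B4 in 2, those of AMACR, H6PD and JUN in 3, and that of SLC7A1 in 4. DESeq2 called 0 heat shock and 0 KLF and SP genes. TNFRSF10B was the only call of 29 p53 targets, and VEGFA rose and VEGFB fell among 23 hypoxia genes. By edgeR and DESeq2, 0 were called among 21 genes of purine and pyrimidine synthesis (4 higher and 1 lower at an unadjusted p under 0.05), 33 of interferon response (0 and 2), 17 histone genes (3 and 1) and 76 cytosolic ribosomal proteins (3 and 0). Of the tested basal, stromal, and blood and endothelial markers (2, 8 and 2 genes), 0 were called by either tool, with 1, 3 and 1 at an unadjusted p under 0.05. These counts at an unadjusted p stand beside 2398 of all 12601 genes tested in either direction.

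**Figure D4:**
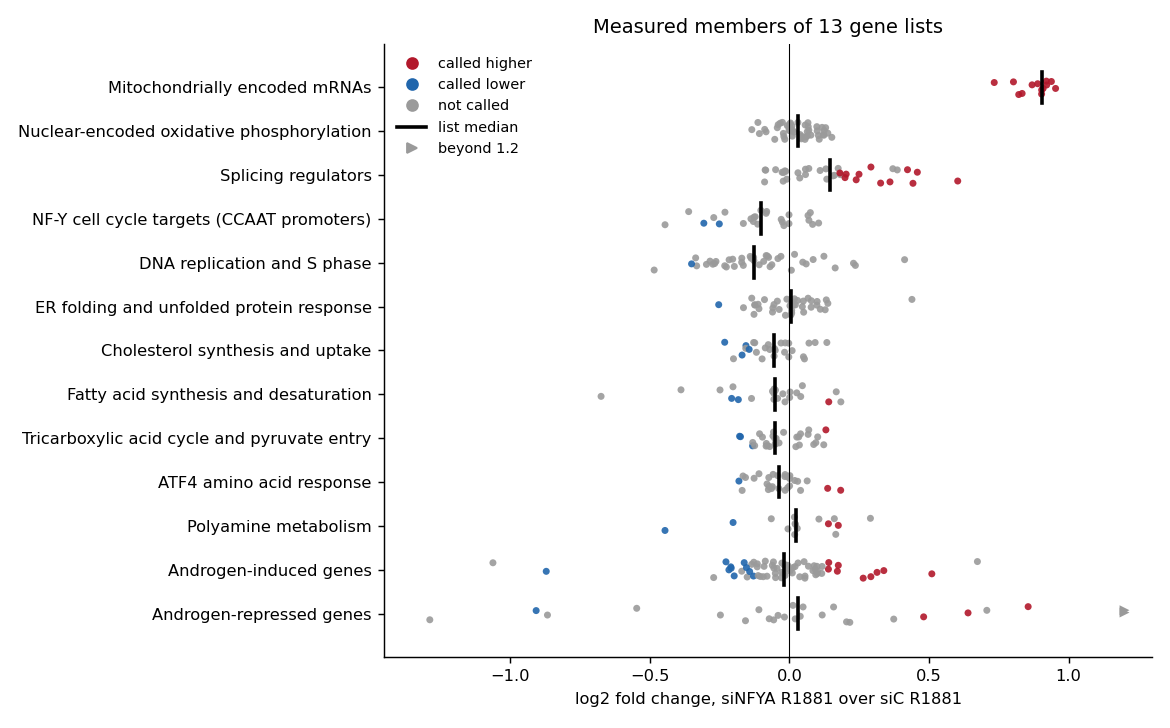
Log2 fold change, siNFYA R1881 over siC R1881, of the measured members of 13 gene lists; each point is a gene, coloured where called, the bar is the list's median, and triangles mark values beyond the axis. The mitochondrial mRNAs lie together near 0.90 and the splicing regulators have a median of 0.15, while the NF-Y cell cycle list has a median of -0.10.

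The vehicle comparison shares no library with the one above, and its calls overlapped. With vehicle, 1696 of the 12601 genes were called (13.5%), 841 higher (6.67%) and 855 lower (6.79%). Of the 332 genes that rose with R1881, 203 (61.1%) also rose with vehicle and 4 fell, and 302 (91.0%) had the same sign. Of the 419 that fell with R1881, 201 (48.0%) also fell with vehicle and 5 rose, and 366 (87.4%) had the same sign. The shared genes were 24.1% of the vehicle rises and 23.5% of the vehicle falls. Over all genes tested the sign was the same in 63.0%. In siNFYA vehicle replicate 3, AC010970.1 held 2.85% of counts. Without that library, 699 genes rose and 905 fell with vehicle, of which 192 and 209 were shared. Without siC vehicle replicate 2 the vehicle counts were 541 and 524, without siNFYA vehicle replicate 1 they were 537 and 556, and without siNFYA vehicle replicate 2 they were 568 and 566.

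The difference of the NFYA knockdown effect between R1881 and vehicle was called for 91 genes (0.722%), 42 higher with R1881 (0.333%) and 49 lower (0.389%). The contrast includes all siNFYA R1881 and siC R1881 libraries, so it is not independent of the comparison above. NFYA itself did not differ (adjusted p = 0.998). Without siNFYA R1881 replicate 1 the count was 264. It was 43 without siC R1881 replicate 2, 47 without siNFYA R1881 replicate 3, 49 without siNFYA vehicle replicate 2 and 57 without either siC R1881 replicate 3 or siC vehicle replicate 2.

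Genes of the ATF4 amino acid response, which covers amino acid import, synthesis and charging of transfer RNAs under amino acid shortage, held 13 called differences between treatments. With R1881, 2 of 29 rose and 1 fell (median log2 -0.04), beside 2.63% and 3.33% of all genes tested. With vehicle, 19 rose and 0 fell (median log2 0.24), beside 6.67% and 6.79% of all genes tested. These 13 of 29 stand beside 0.722% of all genes tested, but the list was chosen with earlier results of these data known. For 12 of the 13 the log2 change with siNFYA was lower with R1881 than with vehicle. SLC1A5, a glutamine transporter, had 371, 366 and 365 CPM with siNFYA and R1881, against 387, 389 and 384 CPM with siC and R1881, and 149.8, 138 and 141 CPM with siNFYA and vehicle, against 114, 105 and 114 CPM with siC and vehicle. The log2 changes were -0.07 with R1881 and 0.37 with vehicle, a difference of -0.44 (SE 0.0583, adjusted p = 0.000386). SLC7A11, the cystine transporter, fell by 0.18 with R1881 (kept in 2 of 6 fits) and rose by 0.34 with vehicle, a difference of -0.52 (adjusted p = 0.000648). DDIT4, an inhibitor of growth signalling, differed by -0.48, XPOT, which exports transfer RNA, by -0.32, TRIB3, a pseudokinase, by -0.45, and PCK2, the mitochondrial PEP carboxykinase, by -0.34. SLC38A2, a neutral amino acid transporter, went the other way, with a rise of 0.18 with R1881 and a log2 of -0.11 with vehicle (difference 0.29, adjusted p = 0.00628). The count was 8 without siC R1881 replicate 2 and between 9 and 15 without each of the other libraries, and 13 by DESeq2.

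In serine, glycine and one-carbon metabolism, 7 of 21 rose and 1 fell with vehicle, beside 6.67% and 6.79% of all genes tested. With R1881, 0 rose and 1 fell, beside 2.63% and 3.33%. The fall was MTHFD2, a mitochondrial folate enzyme (log2 -0.16, kept in 2 of 6 fits). The difference between treatments was called for 4, beside 0.722% of all genes tested, and for 2 to 7 without 1 library. The 4 were MTHFD2 (-0.42), PSAT1 (-0.35), CBS (-0.24) and PHGDH (-0.23). Of the 13 mitochondrial mRNAs, 8 rose more with R1881 than with vehicle, beside 0.333% of all genes tested. The median log2 of the 13 was 0.90 with R1881 and 0.56 with vehicle. The count of 8 became 1 without siC R1881 replicate 2, 2 without siNFYA R1881 replicate 3, 3 without siC R1881 replicate 3 or siNFYA vehicle replicate 2, and 4 without siC vehicle replicate 1.

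Some single genes had changes that differed by treatment. For UGT2B11 the log2 change was 0.86 with R1881 and -0.13 with vehicle (difference 0.98, adjusted p = 0.000476). For SLC41A1, which stood at 521 CPM with siNFYA and 749.9 CPM with siC under R1881 and at 58.7 CPM with siNFYA and 65.4 CPM with siC under vehicle, it was -0.53 with R1881 and -0.17 with vehicle (adjusted p = 0.0297). For CAMK2N1, at 249 CPM with siNFYA and 278 CPM with siC under vehicle, it was -0.91 with R1881 and -0.16 with vehicle. KLK2 rose by 0.31 with R1881 and by 0.97 with vehicle, where it averaged 11.3 CPM with siNFYA and 5.75 CPM with siC. CDK1 fell by 0.25 with R1881 and rose by 0.24 with vehicle (difference -0.49, adjusted p = 0.00202).

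**Figure D5:**
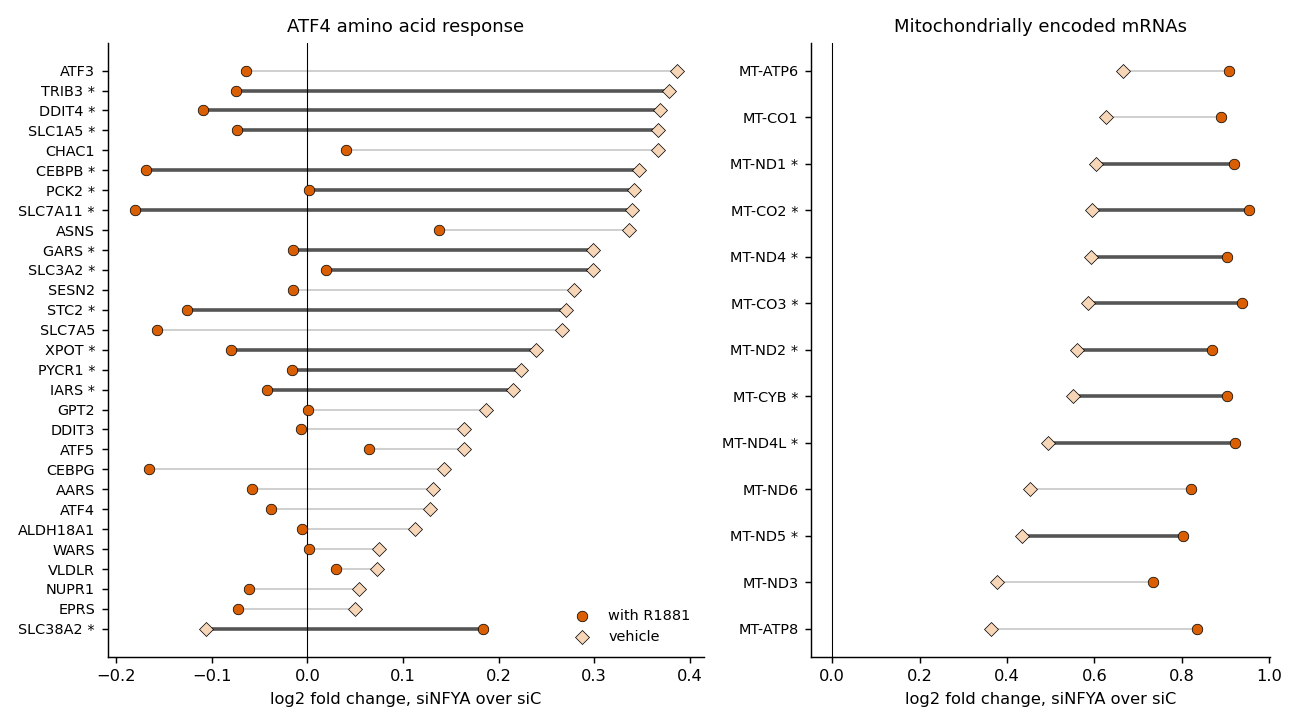
Log2 fold change, siNFYA over siC, with R1881 (circles) and with vehicle (diamonds) for the 29 genes of the ATF4 amino acid response and the 13 mitochondrial mRNAs; a dark line and asterisk mark genes whose difference between treatments was called. Most ATF4 genes lie near 0 with R1881 (median -0.04) and above it with vehicle (median 0.24), and the mitochondrial mRNAs lie higher with R1881.

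A direct comparison with the other knockdown in androgen, siKLF5 R1881, tested which genes differed in level between the siRNA pools. A gene called there can have changed with either pool or with both, so a call does not show that a change was unshared. The contrast shares the siNFYA R1881 libraries with the comparison above. Of 12922 genes tested, 494 were called (3.82%), 193 higher with siNFYA (1.49%) and 301 lower (2.33%). Of the 332 genes that rose over siC, 55 (16.6%) were also higher with siNFYA than with siKLF5, and 0 were lower by edgeR or DESeq2 (2 at an unadjusted p under 0.05). Of the 419 that fell, 161 (38.4%) were also lower than with siKLF5 and 1 was higher. The number called was 241 without siKLF5 replicate 1, 296 without siKLF5 replicate 2, 295 without siKLF5 replicate 3, 280 without siNFYA replicate 2 and 295 without siNFYA replicate 3.

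SLC41A1 had 533, 508 and 523 CPM with siNFYA, against 779, 789 and 775 CPM with siKLF5 (log2 -0.59, adjusted p = 4e-09), and SMARCA5 was lower by 0.64. ADRA2A (log2 -1.07), CAMK2N1 (log2 -0.89), ORM1 (log2 -0.94), GPC6 (log2 -1.13) and ACPP (log2 -0.45) were also lower with siNFYA than with siKLF5. ORM2 (log2 -1.26), PCDH11Y (log2 -1.09), AC118553.2 (log2 -1.41), PCDHGA5 (log2 -1.22) and CCDC154 (log2 -1.02) were lower too. UGT2B11 (log2 0.65), KLK2 (log2 0.42), KLK3 (log2 0.34), MICAL1 (log2 0.36) and ODC1 (log2 0.45) were higher. ODC1 was also lower with siKLF5 than with siC, by a log2 of -0.28. KLF5 (log2 1.06), S100P (log2 1.12), C1QTNF3 (log2 1.07), ALOX12B (log2 1.34) and ARHGEF38 (log2 0.89) were higher with siNFYA, KLF5 being the target of the other pool. SRSF5, CLK1 and MAPK8IP3 did not differ by the test (log2 0.16, 0.24 and 0.45, adjusted p = 0.18, 0.181 and 0.0913). Of 38 protein folding genes, 9 were higher with siNFYA than with siKLF5, beside 1.49% of all genes tested, and 8 were lower with siKLF5 than with siC, beside 0.588%.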

How the data were processed

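RNA of LNCaP cells was sequenced after purification with an RNeasy plus kit and a strand-keeping NEBNext Ultra II Directional library kit, per the labels' protocols. FastQC, Trimmomatic, kallisto, DESeq2 and GRCh38 are named in the submitters' processing notes, without versions. The deposited files hold estimated counts per gene (34912 genes, although their name says TPM) and, in joined tables, estimated counts and TPM for 164776 transcripts, made by the authors. Whether strand was used in quantification is not given in the sources used here.

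Estimated counts were rounded. edgeR 4.0.16 (R 4.3.3) fitted 1 coefficient per group to the 12 siNFYA and siC libraries, with TMM scaling, filterByExpr and the quasi-likelihood test, and genes were called at a Benjamini-Hochberg adjusted p under 0.05. CPM are TMM-scaled. All 17 libraries entered the comparison with siKLF5. On simulated counts 72% of genes changed 1.25-fold and 100% of those changed 1.5-fold were recovered, with 5.1% of calls false. All changes of these sizes were increases, so recovery of falls of these sizes or smaller was not measured. The changed genes were drawn only from genes above a minimum mean CPM, so recovery of genes at low levels was not measured. Single values per library were compared by exact two-sided permutation tests. Promoters are from the RefSeq table (GRCh38.p14), and transcript classes from GENCODE 29.

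Genes named were the 14 largest rises and falls and the 8 largest by CPM among called coding genes that reached 5 CPM in either group and whose libraries did not overlap, up to 4 called members per list and direction, a fixed set of NF-Y, androgen and metabolic genes, and the 6 largest per direction in the other 2 contrasts. Members and lists were chosen with earlier results of these data known. Alternatives were DESeq2 1.42.0, RLE scaling, library totals, no filter, the compared groups alone, limma 3.58.1 on log2(TPM + 1), removal of mitochondrial and AC010970.1 genes, and leaving out each library. Leaving out libraries for the vehicle comparison and for list members' differences between treatments was added after seeing the data. Replicate pairs of the 6 libraries differed beyond sampling noise (chi-square per degree of freedom 1.32 to 2.34). A further unnamed number in the joined tables was not used. Some genes and 1 gene list are not reported here.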

Additional observations from a re-analysis of the deposited data

Results flagged for a closer look

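The NFYA knockdown effect differed between R1881 and vehicle, by the interaction contrast of the edgeR fit at an adjusted p under 0.05, for 29 of the genes named, and each value below is the log2 change with R1881 minus the log2 change with vehicle. All were picked by the same contrast, whose total was 91 of 12601 genes.

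In amino acid and one-carbon metabolism the differences were SLC7A11 (-0.52), MTHFD2 (-0.42), SLC7A1 (-0.39), PHGDH (-0.23) and SLC38A2 (0.29). Among androgen-regulated and luminal genes they were UGT2B11 (0.98), UGT2B15 (0.75), KLK2 (-0.65), KLK3 (-0.46), CAMK2N1 (-0.75) and ACSL3 (0.38). Among genes that fell with R1881 they were ADRA2A (-0.80), SLC41A1 (-0.36), CKB (-0.30) and SPON2 (-0.26). The mitochondrial mRNAs gave MT-ND5 (0.37), MT-CO2 (0.36), MT-CO3 (0.35), MT-CYB (0.35), MT-ND1 (0.32) and MT-ND4 (0.31). Cell cycle genes gave CDK1 (-0.49), KIF2C (-0.68) and IQGAP3 (-0.67).

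The largest by size in each direction also included AC008764.4 (3.01), SOX9 (0.76), MYNN (0.75), LTN1 (0.73) and SLX1A (-2.14). LTN1, a ligase that marks stalled nascent chains, averaged 24.0 CPM with siNFYA and 16.2 CPM with siC under R1881, and 71.0 CPM with siNFYA and 80.3 CPM with siC under vehicle. MYNN, a zinc finger protein, had a log2 change of 0.18 with R1881 and -0.57 with vehicle, and SOX9, a transcription factor, 0.12 with R1881 and -0.64 with vehicle. SLX1A has the near-identical copy SLX1B, which rose with R1881 (17.3 CPM with siNFYA, 3.30 CPM with siC) where SLX1A stood at 9.54 CPM with siNFYA and 19.1 CPM with siC, and the division of reads between them is uncertain.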

How the results depend on the processing

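The number of genes that rose and fell with siNFYA against siC in R1881 was 332 and 419, and 180 and 217 with DESeq2, 94 and 100 with limma on log2(TPM + 1), and 369 and 272 with the compared groups alone. RLE scaling (337 and 418), library totals (334 and 367), no filter (426 and 616) and removal of mitochondrial and AC010970.1 genes (311 and 520) stayed within 1.5 times. Leaving out 1 library gave 191 to 267 rises and 211 to 407 falls. The 91 genes whose change differed by treatment became 326 with no filter and 43 to 264 without 1 library. The 494 genes that differed from siKLF5 became 287 with DESeq2 and 241 to 398 without 1 library. NFYA kept its call in every alternative run, with log2 from -0.71 to -0.59. In limma on TPM, 155 of the 751 called genes were called in the same direction and 16 had the opposite sign, among them MCM4 (log2 0.0235, adjusted p = 0.956); the cause of these changes was not tested. Of the 107 called genes named, 79 stayed called with DESeq2, 38 with limma on TPM and 57 in all 6 fits without 1 library. No paired analysis was possible because the labels number every library separately. With 5034545 to 6047130 counts per library, 1 CPM is only a few counts.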
